A study of Mus musculus with 88 samples.

Results

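Cluster 3 is one of 22 clusters into which the authors sorted single mouse embryonic stem cells and embryoid body cells, and its members were the cells that carry cluster number 3 in the deposited annotation. It held 335 of 4949 cells. The cells came from 16 SORT-seq libraries, a plate-based method in which single viable cells are sorted into wells and each captured transcript is counted once by a unique molecular identifier (UMI). The libraries covered Eed null, Jarid2 null, Mtf2 null and WT cells at days 0, 4, 7 and 10 of embryoid body formation, with 1 library for each genotype and day and hence no replicate library. Day 0 cells were undifferentiated and grown in serum with LIF, and embryoid bodies were then formed by aggregation, after which LIF was removed. The labels name E14, a male mouse stem cell line of 129 background, for all 16 libraries, whereas the study's methods describe gene-trap Mtf2, Jarid2-/- and Eed-/- lines that have matched WT lines of their own. Bulk libraries of WT, Mtf2 null and Jarid2 null monolayer cultures, directed to mesoderm or endoderm by added factors, were used as well and are described below. The matched WT lines used here are J1 (for Eed), JM8 (for Jarid2) and Pcl1-3 wt (for Mtf2), sampled in bulk in monolayer at day 0. Each genotype was thus 1 line, and genotype and line cannot be told apart.

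Undifferentiated mouse stem cells in serum and LIF are held in a naive pluripotent state by a network of transcription factors. Pou5f1 and Sox2 form its core, Nanog and Esrrb stabilize it, and LIF acts through Stat3 on Klf4, Tfcp2l1, Gbx2 and Socs3. When LIF is withdrawn the naive factors are lost, genes of the formative state such as Fgf5 and Otx2 come on, and the cells then enter mesoderm, endoderm or ectoderm. Mtf2, Jarid2 and Eed belong to Polycomb repressive complex 2 (PRC2), which places a methyl mark on histone H3 at developmental genes and restrains them.

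Cluster 3 was made almost wholly of undifferentiated WT cells. Of its 335 cells, 307 came from the WT day 0 library, and these were 90.3% of that library's 340 cells (exact 95% binomial interval 86.6 to 93.2). Later WT libraries gave 3 of 331 cells at day 4 (0.906%), 1 of 316 at day 7 (0.316%) and 0 of 214 at day 10, which allows a share of up to 1.71%. Mtf2 null cells at day 0 gave 9 of 347 (2.59%, 1.19 to 4.87) and Jarid2 null cells 13 of 337 (3.86%, 2.07 to 6.51). Each of these genotypes gave 1 more cell at day 4. Eed null cells gave none, and 0 of 340 at day 0 allows a share of up to 1.08%. In all, 98.2% of the cluster came from day 0. These intervals cover counting error only.

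**Figure D1:**
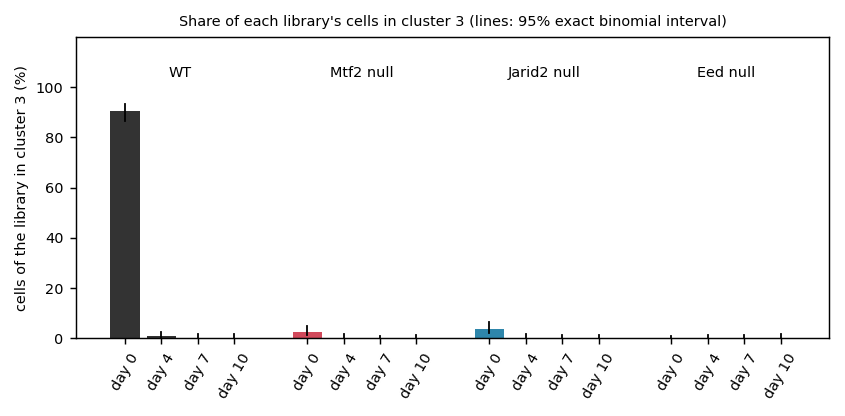
Share of each library's cells that lay in cluster 3, in percent, for 4 genotypes at days 0, 4, 7 and 10, with lines for exact 95% binomial intervals. WT day 0 stands at 90.3% and no other library exceeds 3.86%.

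The 28 cells from outside the WT day 0 library included 24 with a mutant label. On most of the genes given here these 24 differed from day 0 cells of the same label outside the cluster. Clustering used the same genes, so a level like that of WT cells was partly given, and the values are a description. In WT day 0 cells of cluster 3, Hprt, a purine salvage enzyme whose gene is deleted in some sublines of E14, gave 3.68 counts per 1e6 UMIs of the group (UMI CPM), with 10 UMIs in 7 of 307 cells. The 338 Mtf2 null cells at day 0 outside the cluster gave 629 UMI CPM. The 10 cells labelled Mtf2 null inside the cluster gave 39.1 UMI CPM from 3 UMIs, and the 14 labelled Jarid2 null gave 87.6 from 11 UMIs against 676 outside. The targeted gene behaved likewise: Mtf2 stood at 796 UMI CPM in the WT day 0 cells of the cluster, at 665 in its 10 cells labelled Mtf2 null, all of which had a UMI, and at 44.5 in the Mtf2 null cells outside. Jarid2 stood at 598 UMI CPM in the WT day 0 cells, at 406 in the 14 cells labelled Jarid2 null inside the cluster and at 135 in those outside at day 0. Meg3, a maternally expressed imprinted RNA, gave 430 and 247 UMI CPM in the cells labelled Mtf2 null and Jarid2 null inside the cluster, against 361 in WT day 0 cells and 7.86 and 2.59 in the same mutants outside. Ddx3y, a Y-linked RNA helicase gene, gave 175 UMI CPM in the cells labelled Jarid2 null inside the cluster, 176 in its WT day 0 cells and 2.27 in Jarid2 null cells outside. For the Mtf2 label it did not separate the libraries, at 130 inside (62.5 to 240) and 97.2 outside. Rplp1, a ribosomal protein gene, gave 560 and 612.9 UMI CPM in the cells labelled Mtf2 null and Jarid2 null inside, against 127 in WT day 0 cells and 3567 and 3503 outside. The mutant-labelled cells inside the cluster were thus close to the WT day 0 library on Meg3 and lay between it and their own library on Hprt and Rplp1. All plates use the same set of well barcodes, and all 311 well barcodes of cluster 3 also occurred in another library. The part of shared barcodes in these 28 cells was not tested.

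**Figure D2:**
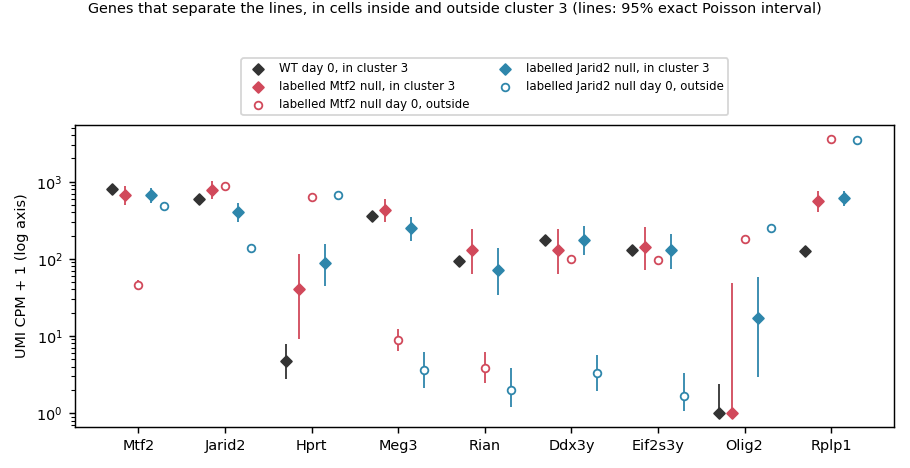
UMI CPM plus 1 on a log axis of Mtf2, Jarid2, Hprt, Meg3, Rian, Ddx3y, Eif2s3y, Olig2 and Rplp1 in WT day 0 cells of cluster 3, in cells labelled Mtf2 null or Jarid2 null inside the cluster (diamonds) and in day 0 cells of the same labels outside it (open circles). For Meg3 and Rian the diamonds lie near the WT cells and far above the open circles of their own label, and for Hprt they lie between.

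The 335 cells held 2941266 UMIs in all, with a median of 8485 per cell (range 1543 to 26530) and a median of 3523 genes with a UMI. Other cells had a median of 6513.5 UMIs. The 3 clusters most like it in origin, being mostly of day 0 cells too, were cluster 0 (386 cells, 90.7% from day 0), cluster 6 (303 cells, 92.4%) and cluster 8 (265 cells, 89.4%), with medians of 9972.5, 9386 and 10060 UMIs. Levels are given as UMI CPM over all cells of a group with exact Poisson intervals, and a gene was called higher or lower where its level differed over 2-fold between groups and reached 50 UMI CPM in the higher one. With 1 library per group these calls have no replicate check and no test.

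Both markers of undifferentiated cells were present, but Nanog did not set cluster 3 apart from other cells. Esrrb, an orphan nuclear receptor at chromosome 12, 86361117 to 86521628 (GRCm38), gave 702 UMIs or 239 UMI CPM in cluster 3 against 98.6 in all other cells, and cluster 3 ranked first of the 22 clusters. Nanog, a homeobox factor at chromosome 6, 122707489 to 122714633, gave 638 UMIs or 217 UMI CPM against 191, and cluster 3 ranked only seventh, below clusters 6 (358), 0 (268) and 8 (250). With each cell thinned to 2500 UMIs, which left 318 cells, Esrrb had a UMI in 43.7% of cells (38.2 to 49.4; 77.3% unthinned) and Nanog in 38.1% (32.7 to 43.6; 70.7% unthinned). In cluster 4, a cluster of embryoid body cells with a median of 6137.5 UMIs against 8485 here, these shares were 0.993% and 2.65%. In clusters 0, 6 and 8 they were 39.8, 30.9 and 33.5% for Esrrb and 42.3, 57.6 and 44.3% for Nanog, which was thus seen in a larger share of cells there than here. Both genes had a UMI in 202 of 335 cells (60.3%, 54.8 to 65.6), Esrrb alone in 17.0%, Nanog alone in 10.4% and neither in 12.2% (8.93 to 16.2). In cluster 4, both were seen in 0.926% of cells and neither in 92.9%.

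The stretch just before the Nanog start is shown because it holds, 75 to 62 bases before the start, a composite site of the core factors Sox2 and Pou5f1 (capitals). It is the 250 bases at chr6:122707239-122707488 on the plus strand of GRCm38.p6, from RefSeq.
Nanog promoter: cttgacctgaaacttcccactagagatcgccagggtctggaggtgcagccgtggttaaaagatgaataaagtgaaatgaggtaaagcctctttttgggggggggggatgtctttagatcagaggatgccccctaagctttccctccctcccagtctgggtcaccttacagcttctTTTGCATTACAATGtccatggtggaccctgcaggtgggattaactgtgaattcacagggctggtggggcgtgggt
The motif was searched as CATTGT, any base, then ATGCAAA on both strands in windows from 250 bases before to 50 bases after each start. These are the textbook letters of a site already known at Nanog, so its presence there was given and is no test. It occurred in 2 of 32851 windows (0.00609%), both of 1 gene among 27025. Its Oct part alone, ATGCAAA, lies within the longer motif and occurred in 4.63% of windows and in 2 of the 14 naive genes with a window, Nanog and Zfp42. The nuclear receptor motif TCAAGGTCA (0.423% of windows) and the Stat motif TTCCNGGAA (1.15%) occurred in none of those 14. A match is only a match of letters.

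Endoderm, mesoderm, fibroblast and globin genes were near 0 in cluster 3. The endoderm and mesoderm genes Sox17, Pdgfra, Foxa2, T, Kdr and Tbx6 gave 0 UMIs of 2941266, where the floor of 3 counts is 1.02 UMI CPM. Gata6, a primitive endoderm factor, gave 0.34 UMI CPM against 43.3 in other cells, and with thinning 0 of 318 cells had a UMI (up to 1.15%) against 41.1% in cluster 4. The primitive endoderm list summed to 8.16 UMI CPM against 163, the mesoderm list to 12.6 against 301 and the fibroblast list to 4.08 against 229. Other lists were not near 0: ectoderm genes summed to 171 UMI CPM against 131, germline genes to 435 against 485 and trophoblast and keratin genes to 99.3 against 306. A fibroblast gene was seen in 3 thinned cells (0.943%) against 17.8% of other cells. Embryonic globin Hba-x gave 0 UMIs, at least 766-fold below the 782 UMI CPM of other cells, and Hbb-bh1 was at least 488-fold below the 498 of other cells. Genes of the totipotent-like state seen at the two-cell stage gave a UMI in 9 thinned cells (2.83%) against 1.55% elsewhere.

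Against all other cells, 163 of 4781 genes compared were over 2-fold higher in cluster 3 (3.41%) and 350 were lower (7.32%), 10.7% in all. Mras and Pou4f2 were among the genes that led the higher side, and the lower side was led by the hemoglobin genes Hba-x, Hbb-bh1, Hba-a1, Hba-a2 and Hbb-y, with Dlk1, Igfbp5, Wls, Capn6 and H19. The split rested on scaling: 31.8% of calls were higher as given and 48.1% with median-of-ratios scaling, which moved the median of all genes by 0.13 on the log2 scale. With the 307 WT day 0 cells alone, 170 genes were higher and 364 lower, 159 and 347 of them shared with the full cluster. All folds that follow describe a cluster drawn from the same genes, so they carry no test.

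The 15 leading genes by fold ranked first of all 22 clusters in cluster 3, save Gbx2, which ranked second. Mras, a Ras-related GTPase (chromosome 9, 99385420 to 99437381), gave 249 UMI CPM (interval 231 to 267) against 31.2 in other cells, a fold of 7.98, with cluster 8 nearest at 124. Pou4f2, a POU-domain factor best known from retinal ganglion neurons (chromosome 8, 78433010 to 78436645), gave 52.0 (44.1 to 60.9) against 6.62. Arc came next to them with a fold of 5.79. With thinning, Mras had a UMI in 38.4% of cells of cluster 3 and 1.99% of cluster 4, and Pou4f2 in 10.4% and 0%.

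Further leading genes were 4 to 6-fold higher. Arc, known from synapses, stood at 62.6 UMI CPM against 10.8 in other cells. Ceacam1, an adhesion molecule, stood at 87.4 against 16.4. Inpp5d, an inositol phosphatase best known from blood cells, stood at 92.1 against 17.3, with cluster 18, the cluster with the most Hba-x, next at 55.4. Cltb, a clathrin light chain, stood at 256 against 54.1 but was close in cluster 0 at 202. Ccnb1ip1, which acts in meiotic recombination, stood at 170 against 36.4, with 149 in cluster 6 and only 8.33 and 4.69 in clusters 0 and 8. This gene has near-identical copies, so its counts are uncertain. Gbx2, a homeobox factor under LIF control (chromosome 1, 89927956 to 89931179), stood at 156 against 37.9 and was higher in cluster 8 at 210. Aard, Enox1, Adam23, Cdyl2, Dmtn and a gene stored under a date in place of its symbol were also among the 15, with folds from 4.14 to 5.22.

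**Figure D3:**
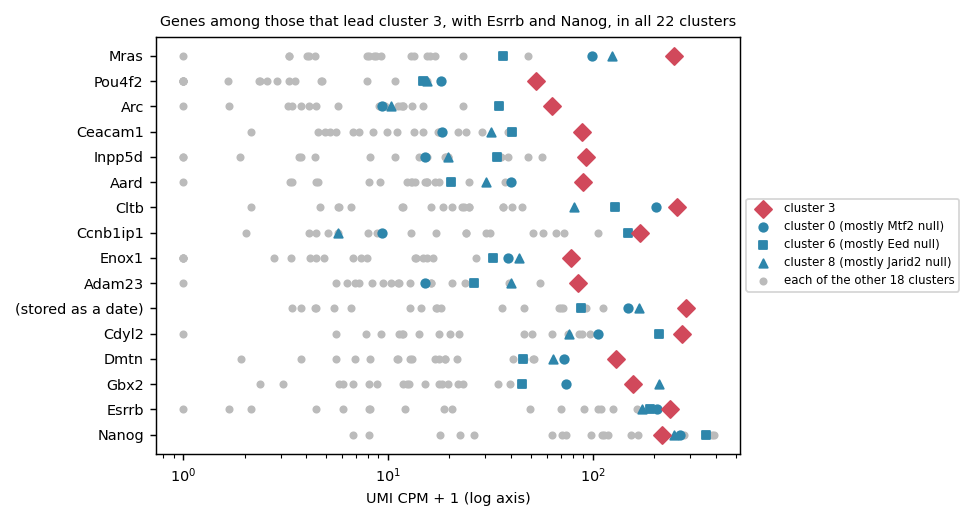
UMI CPM plus 1 on a log axis of 14 of the leading genes, Esrrb and Nanog in each of the 22 clusters (red diamond, cluster 3; blue circle, square and triangle, clusters 0, 6 and 8; grey, the other 18). Cluster 3 is the highest point for Esrrb and for each of the 14 but Gbx2, and lies below clusters 0, 6 and 8 for Nanog.

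Naive pluripotency genes were as a group higher than in other cells, with 9 of the 17 compared past 2-fold and 1 below. Of all genes compared, 3.41% were higher and 7.32% lower. For the naive genes the spread of folds is given next. The naive genes had a median log2 ratio of 1.01 against 0.11 for all genes, and a summed level of 5561 against 2559 UMI CPM. Zfp42 (Rex1), a zinc finger factor used as a reporter of the naive state, gave 821 against 237, Klf5 1297 against 472, and Tcl1, a coactivator of Akt, 170 against 51.4. Nr0b1, a nuclear receptor corepressor, gave 423 against 184, and Fgf4, a growth factor that primes exit from the naive state, gave 267 against 131. The cytokine side of the network lay higher too: Socs3, the feedback inhibitor of LIF signaling, gave 232 against 68.6, Gbx2 was 4.13-fold higher and Stat3 gave 124 against 61.3. Klf4 (206 against 106), Tbx3 (167 against 87.0), Tfcp2l1 (185 against 102), Klf2 (778 against 453) and Nanog did not reach 2-fold. Cluster 3 was among the 3 highest clusters for 15 of the 18 genes of the list and first for 3 of them, Esrrb, Tcl1 and Socs3.

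Dppa3 (Stella), a factor that protects DNA methylation in the early embryo, was the exception among the naive genes. It gave 48.6 UMI CPM in cluster 3 against 149 in other cells, a log2 ratio of -1.62, and cluster 3 ranked thirteenth. Clusters 0 and 6 stood at 199 and 195 and cluster 8 at 72.3. With thinning 11.0% of cells of cluster 3 had a Dppa3 UMI (23.9% unthinned) against 0.662% in cluster 4.

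**Figure D4:**
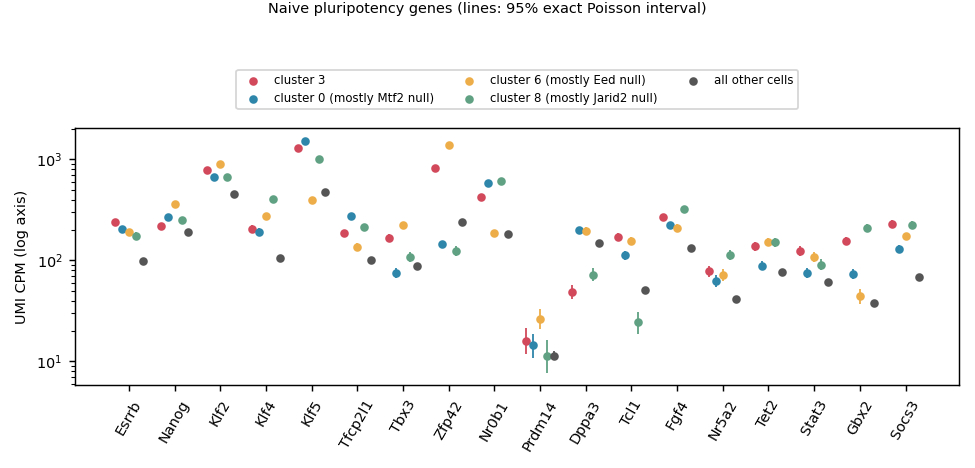
UMI CPM on a log axis with exact Poisson intervals of 18 naive pluripotency genes in cluster 3, clusters 0, 6 and 8 and all other cells. Cluster 3 lies above all other cells for all but Dppa3, while clusters 0, 6 and 8 lie on either side of it gene by gene.

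Core pluripotency genes differed less. Of 12 compared, 2 were past 2-fold, beside 3.41% of all genes, and 4 were with median-of-ratios scaling. The 2 were Dppa2, just past the limit (176 against 87.9 UMI CPM), and the p53 gene Trp53 (377 against 185). Trp53 was counted as a member of the list, though it is not itself a core pluripotency factor. Utf1, a chromatin factor, gave 1539 against 783 and Tdgf1, a Nodal co-receptor, 1290 against 654, and both ranked first in cluster 3. Sox2 gave 992 against 677, with a UMI in 90.6% of thinned cells against 17.2% in cluster 4 and 92.3, 86.3 and 87.4% in clusters 0, 6 and 8. Pou5f1 gave 79.9 against 66.4, and Dppa5a 725 against 803.

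The formative genes lay lower, with 3 of 6 compared past 2-fold and none higher, and a median log2 ratio of -1.27. Of all genes compared, 7.32% were lower. Fgf5 gave 0 UMIs against 18.1 UMI CPM in other cells. Otx2, the homeobox factor that drives exit from the naive state, gave 41.1 against 175, Pou3f1 28.9 against 112, and Lef1, a Wnt effector, 0.68 against 76.4. The DNA methyltransferases of this state did not pass, with Dnmt3b at 314 against 475 and Dnmt3a at 110 against 159.

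Signaling ligands and feedback genes were raised in part: 4 of 9 compared passed upward and 1 downward. Among all genes compared these shares were 3.41% and 7.32%. The median log2 ratio of the list was 0.53 against 0.11 for all genes. Bmp4, the ligand that works with LIF to hold stem cells undifferentiated, gave 683 against 195 UMI CPM, and the Nodal inhibitor Lefty2 607.9 against 260. The inhibitors of FGF and ERK signaling Spry2 (223 against 110) and Spry4 (188 against 83.5) also passed. Id3, a target of BMP signaling, was lower at 72.4 against 230, while Id1 stood at 236 and 233.

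PRC2 genes gave 2 of 9 past 2-fold upward, beside 3.41% of all genes: Eed (497 against 194) and Mtf2 (785 against 319). The libraries of other cells include those with these genes mutated, so this contrast carries the genotype. Ezh2 (193 against 214) and Suz12 (297 against 302) lay close to 1-fold. Among genes of DNA methylation Tet1, a dioxygenase that removes the mark, was highest of all clusters at 1499 against 530, whereas Tet3 was lower at 13.9 against 50.5. In the germline list 0 of 2 compared passed, in the ectoderm list 1 of 1 (Tubb3, 152 against 62.3), in the trophoblast and keratin list 2 of 3 were lower, and in the immediate early list Jun was lower at 6.80 against 57.0.

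Lists of cell cycle and glycolysis genes held few calls against all other cells, close to or below the share of all genes. Of 28 S phase genes 1 passed, E2f8 (95.9 against 47.8), and the list's median log2 ratio was 0.42, against 0.11 for all genes. Of 46 G2/M genes none passed, and the median was 0.33. At 2500 UMIs a cell of cluster 3 held a median of 28 S phase UMIs (10th to 90th percentile 18 to 38.3) against 23, 21 and 24 in clusters 0, 6 and 8. The glycolysis list had 0 of 13 past 2-fold with a median of -0.44, the nearest being Pkm (1056 against 2080) and Pgk1 (714 against 1400). Against cluster 0 the glycolysis list had 3 of 13 higher and 1 lower, beside 3.51% and 2.77% of all genes. Against cluster 8 it had 2 of 13 higher and 1 lower, beside 4.39% and 2.39% of all genes. Imprinted genes split, with 2 of 14 higher and 8 lower, beside 3.41% and 7.32% of all genes. Meg3 (chromosome 12, 109541001 to 109571726) and Rian (chromosome 12, 109603940 to 109661716), neighbors expressed from the maternal chromosome, were higher at 358 against 149 and 92.1 against 33.0. Peg3 (95.2 against 618), Mest (90.1 against 344), Grb10 (60.2 against 211), Igf2r (56.1 against 200), Dlk1 (1.70 against 366) and H19 (0 UMIs against 97.7 UMI CPM) were lower.

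The 33 WT day 0 cells that lay outside cluster 3 were mostly in cluster 7 (21 cells) and cluster 12 (8 cells). Between the 307 and the 33 cells, 323 of 4746 genes passed 2-fold (6.81%), 142 higher and 181 lower inside. Of 17 naive genes 7 were higher inside and none lower, with a median of 0.63 against -0.01 for all genes. With thinning, Nanog had a UMI in 15.2% of the outside cells, Klf4 in 15.2% and Zfp42 in 51.5%, whereas Esrrb kept 42.4%. The median depth of the outside cells was 7054 UMIs. Inside cluster 3, thinning gave Klf4 a UMI in 37.1% of cells and Zfp42 in 84.6%. Bmp4 stood at 694 UMI CPM inside and 153 outside. The glucose transporter Slc2a3 stood at 1484 inside and 2999 outside. Hprt was at 0 UMIs outside and Meg3 at 495, so these cells shared the pattern of their library. Clustering used the same genes, so these differences are a description.

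Across the WT libraries the genes that lead cluster 3 were lower in embryoid bodies. All 15 were below their day 0 level at days 4, 7 and 10, and their summed level went from 2044 UMI CPM at day 0 to 498, 242 and 215. The 18 naive genes summed to 5422, 1831, 1125 and 888. Mras gave 238, 35.0, 5.18 and 6.44 at the 4 days and Socs3 238, 23.3, 16.0 and 18.6, most of the drop being there by day 4. Esrrb gave 242, 77.5, 32.5 and 30.8. Nanog stood at 211, 156, 152 and 54.4. Tbx3 was not lower at each step, with 162, 47.6, 137 and 69.4, and Dppa3 differed little at 50.2, 55.1, 53.7 and 35.0. Each day is 1 library. The 15 leading genes were picked for their fold over other cells, which include the later WT cells. Their drop was thus largely given by that choice and is a description.

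Against cluster 0, whose cells are mostly of the day 0 Mtf2 null library, 160 of 4552 genes were higher (3.51%) and 126 lower (2.77%), 6.28% in all. The share of higher calls was 55.9% as given and 45.4% with median-of-ratios scaling. Meg3 (358 against 10.1 UMI CPM), Rian (92.1 against 4.54), Ccnb1ip1 (170 against 8.33), the intermediate filament gene Vim (252 against 16.2), Mtf2 (785 against 89.1) and Stag3, a meiotic cohesin subunit (50.7 against 6.56), led with Arc and Ly75 (71.7 against 10.4). The neural factors Olig2 (0.68 against 163) and Olig1 (1.70 against 122), Hprt (8.16 against 631), Rplp1 (163 against 3674), Tex15 (4.76 against 52.5), Pmaip1, S100a11 and Magohb were lowest. Hprt was 3.68 without the cells of other labels. Rplp1 has near-identical copies and its counts are uncertain. Of 17 naive genes 3 were higher and 1 lower, with a median of 0.24 against 0.07 for all genes. Zfp42 was the widest of these at 821 against 144, while Klf5 (1297 against 1516) and Tfcp2l1 (185 against 273) leaned the other way.

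Against cluster 6, whose cells are mostly of the day 0 Eed null library, 163 of 4722 genes were higher (3.45%) and 189 lower (4.00%), 7.45% in all. Eed led at 497 against 12.5, followed by Krt17 (67.0 against 5.94), and Trp53 (377 against 46.2) and the interferon-induced membrane gene Ifitm3 (633 against 79.2) were among the 8 leading genes with Meg3, Pop4, Eda2r and Rian. H19 (0 UMIs against 111 UMI CPM), the neuropeptide Npy (0 against 103), Xlr3a (0 against 83.2), Hprt (8.16 against 540) and the germ cell factor Sohlh2 (1.70 against 91.4) were lowest. Of 17 naive genes 3 were higher and 1 lower with a median of 0.14, against 0.03 for all genes. Klf5 was higher at 1297 against 393 and Dppa3 lower at 48.6 against 195. Otx2 was lower at 41.1 against 228, 1 of 2 formative genes that passed downward among 5. Nanog (217 against 358) and Zfp42 (821 against 1378) did not pass 2-fold.

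Against cluster 8, whose cells are mostly of the day 0 Jarid2 null library, 200 of 4556 genes were higher (4.39%) and 109 lower (2.39%), 6.78% in all. The share of higher calls was 64.7% as given and 46.6% with median-of-ratios scaling. Among the leading genes were Meg3 (358 against 1.56), Rian, Ccnb1ip1, Ddx3y (175 against 6.26), Eif2s3y (132 against 5.47), Fxyd6 and the coagulation inhibitor Tfpi (213 against 18.0). Olig2 (0.68 against 295), Olig1, Hprt (8.16 against 675), Rplp1, Nlrp4f, Hal and a pair of Mir692 genes were lowest. Of 17 naive genes 2 were higher, Zfp42 (821 against 125) and Tcl1 (170 against 24.2), and none lower, with a median of -0.14 against 0.10 for all genes. Klf4 was 206 against 402. Bmp4 (683 against 231) and Lefty2 (607.9 against 88.4) were among 3 of 9 signaling genes that passed upward. In all 3 of these contrasts each cluster was mostly 1 line, so line and genotype cannot be told apart.

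Variation among the cells of cluster 3 was measured after thinning, which draws the variance toward that of counting. Over 318 cells thinned to 2500 UMIs the variance over the mean had a median of 1.08 (quartiles 1.01 and 1.16) across 5388 genes, where counting alone gives about 1. At this depth 10 genes passed 2, and 8 did with WT day 0 cells alone, 7 of them shared. At 5000 UMIs, over 271 cells, 44 genes passed 2 and the median was 1.13. The nuclear RNA Malat1 led at 6.87 (4.55 in WT day 0 cells), followed by Lars2, a mitochondrial tRNA ligase, at 4.70, Klhl13 at 2.88, the metallothionein Mt2 at 2.75, the X-linked homeobox gene Rhox5 at 2.38 and Lefty2 at 2.33. Rhox5 and Lars2 rested on few cells: 6.60% and 14.2% of thinned cells had a UMI, and 10 cells held 72.5% and 52.7% of the UMIs. For Lefty2 these shares were 64.8% and 16.5%. Spp1, Slc2a3, Mir703 and Pcna lay between 2.00 and 2.28. Among naive factors Klf5 gave 1.66 and Nr0b1 1.64 (1.62 and 1.68 in WT day 0 cells alone), Klf4 gave 1.36, Zfp42 1.21 and Esrrb 1.20. Nanog, at 1.10, and Pou5f1, at 0.987, were close to the median of all genes.

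Bulk RNA-seq of undifferentiated and directed cultures gave a test of the genes named above in libraries that the clustering did not use. It held mesoderm and endoderm series of 24 libraries each, with WT, Mtf2 null and Jarid2 null cells undifferentiated and at 5, 24 and 48 hours in duplicate, with library totals from 9111880 to 16898264 estimated counts. Per the methods, the directed cells received Activin A, CHIR99021 and FGF2, with BMP4 added for mesoderm, for the first 24 hours. A further mix followed, with BMP4 for mesoderm or Activin A for endoderm. The methods call the duplicates technical, so p-values measure only the spread among these libraries. In bulk samples, fewer cells of a type and less RNA per cell cannot be told apart. A gene was called where edgeR's quasi-likelihood test with Benjamini-Hochberg adjustment gave a p under 0.001 and the log2 change passed 1.

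Undifferentiated WT libraries were first set against Mtf2 null libraries, 4 of each. Mtf2 gave 365, 511, 425 and 512 CPM in WT and 34.1, 31.3, 34.2 and 30.4 in Mtf2 null libraries (log2 change 3.80, SE 0.12, edgeR adjusted p = 2.5e-12), so the targeted gene followed the labels. In all, 2444 of 16655 genes were called (14.7%), 1094 higher in WT (6.57%) and 1350 lower (8.11%). The 8 genes named as highest in cluster 3 over cluster 0 were all higher in WT, and 7 of the 8 lowest were lower. Mtf2 itself is among the 8 highest, and its direction was given by the genotype. Hprt gave 0.288, 0.524, 0.270 and 0.189 CPM in WT and 83.7, 75.3, 91.6 and 79.8 in Mtf2 null libraries (log2 -7.96, SE 0.18, edgeR adjusted p = 7.6e-14). Meg3 gave 88.1, 116, 74.7 and 116 CPM in WT and 0.848, 0.517, 0.164 and 0.754 in Mtf2 null libraries (7.42, SE 0.32, edgeR adjusted p = 7.8e-11). For both genes the groups lay far apart with no overlap. Vim (4.15), Ccnb1ip1 (3.70), Stag3 (2.33) and Ly75 (1.93) were called higher and Olig2 (-7.69), Olig1 (-4.50), Magohb (-3.43), Tex15 (-2.67), Pmaip1 (-2.40) and S100a11 (-1.49) lower, all as log2 changes. Rplp1 was not called (-0.08, edgeR adjusted p = 0.67). Arc was called at 1.07 but lost the call without mesoderm WT replicate 1 (0.95) and within either series alone (1.19 and 0.93).

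The naive genes did not move one way in that contrast, with 1 of 18 higher and 5 lower in WT and a median of -0.43 against 0.04 for all genes. Zfp42 was higher at 386 ± 9.77 CPM against 69.9 ± 2.82 (SD, n = 4 libraries; log2 2.47, SE 0.07, edgeR adjusted p = 1.5e-12). Dppa3 (-2.58), Klf5 (-1.76), Nr0b1 (-1.66), Tfcp2l1 (-1.59) and Klf4 (-1.24) were lower in WT on the log2 scale. Esrrb (-0.81) and Nanog (-0.17) were not called. All 10 primitive endoderm genes were lower in WT, with a median of -3.11, Gata6 at 1.93 against 17.0 CPM and Gata4 at 7.56 against 31.6. Of 14 leading genes tested, 5 were higher and none lower. Among all genes tested in this contrast, 6.57% were higher and 8.11% lower in WT.

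Against the libraries labelled Jarid2 null, 191 of 16655 genes were called (1.15%). This count moved widely, to 14 and 71 in the mesoderm and endoderm series alone, 85 with same-numbered libraries of both series summed and 364 with no filter on low counts. Jarid2 itself gave 461, 371, 443 and 354 CPM in WT and 316, 307, 310 and 291 in the libraries labelled Jarid2 null, a log2 change of 0.41 that was not called. The groups did not overlap for Jarid2. In single cells outside the cluster at day 0 it had stood at 135 UMI CPM under that label, against 598 in WT day 0 cells of cluster 3. Hprt stood at 0.317 ± 0.144 CPM in WT and 0.426 ± 0.179 in these libraries and Meg3 at 98.7 ± 20.7 and 99.6 ± 26.9 (SD, n = 4 libraries), whereas single cells of that label had high Hprt and low Meg3. Of the 8 genes higher and the 6 tested of the 8 lower in cluster 3 than in cluster 8, none was called in either direction, beside 0.558% and 0.588% of all genes. Among the leading genes Enox1 (log2 2.07, SE 0.11, edgeR adjusted p = 8.8e-08), Gbx2 (1.59, SE 0.13, edgeR adjusted p = 2e-06) and Pou4f2 (1.53) were higher in WT, as were Lefty2 (1.70) and Bmp4 (1.30). Gbx2 lost the call in the mesoderm series alone (1.57, edgeR adjusted p = 0.0015). In single cells Gbx2 leaned the other way, at 156 UMI CPM in cluster 3 against 210 in cluster 8.

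WT libraries were then followed from the undifferentiated state to 48 hours. In the mesoderm series 1587 of 18361 genes were called (8.64%), 565 higher in undifferentiated cells (3.08%) and 1022 lower (5.57%). In the endoderm series 1570 of 19261 were called (8.15%), 577 higher (3.00%) and 993 lower (5.16%). Of 14 leading genes tested, 8 were higher in undifferentiated cells and 1 lower in the mesoderm series (median 1.18), 7 were higher and 1 lower in the endoderm series (median 1.10), and 7 were higher in both. Of 18 naive genes 6 were higher in the mesoderm series and 14 in the endoderm series, none lower in either, with medians of 0.73 and 1.59. Of 10 formative genes 4 and 9 were lower, Otx2 with log2 changes of -4.51 and -5.41.

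Mras gave 96.9 and 76.0 CPM in undifferentiated libraries and 9.41 and 9.21 at 48 hours of the mesoderm series (log2 3.21, SE 0.16, edgeR adjusted p = 1.9e-11), with 57.4 and 54.6 at 5 hours and 24.6 and 24.9 at 24 hours. It fell alike in the endoderm series, from 93.6 and 76.5 to 5.37 and 4.99 (4.03, SE 0.19, edgeR adjusted p = 3.9e-12). Levels at 5 hours were thus already below both starting libraries, and start and end did not overlap. Socs3 had gone furthest by 5 hours of the 8 genes plotted, from 160 and 128 CPM to 22.5 and 19.4 at 5 hours and 4.44 and 6.52 at 48 hours of the mesoderm series (4.73, SE 0.17, edgeR adjusted p = 3e-13). In the endoderm series it stood at 11.9 and 14.3 by 5 hours. Gbx2 went from 46.3 and 30.9 CPM to 0.784 and 1.30 (5.22, SE 0.28, edgeR adjusted p = 5.4e-11), and Ceacam1 from 25.3 and 21.7 to 5.56 and 4.48 (2.22, SE 0.20, edgeR adjusted p = 5.4e-08), both in mesoderm.

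Esrrb and Nanog, the markers of the cluster, were called only in the endoderm series. Esrrb gave 447 and 286 CPM in undifferentiated libraries, 665 and 687 at 5 hours, 507 and 499 at 24 hours and 176 and 215 at 48 hours of the mesoderm series (log2 0.91, SE 0.16, edgeR adjusted p = 0.00021). Its levels at 5 and 24 hours were thus above both starting libraries and those at 48 hours below them. In the endoderm series it ended at 128 and 121 (1.56, SE 0.17, edgeR adjusted p = 2.8e-07). Nanog gave 412 and 441 CPM at the start, 267 and 254 at 5 hours and 246 and 189 at 48 hours of the mesoderm series, which was not called (0.97), and ended at 108 and 95.8 in the endoderm series (2.10, SE 0.12, edgeR adjusted p = 5.2e-11). Both mesoderm changes lie near the limit of 1: Esrrb passed it without mesoderm WT replicate 2 undifferentiated (1.20) or at 48 hours (1.05), and Nanog without replicate 1 undifferentiated (1.01) or at 48 hours (1.17). Klf4 fell from 180 and 120 to 8.49 and 14.0 CPM in the endoderm series (3.74, SE 0.20, edgeR adjusted p = 1.9e-11). In the mesoderm series it went from 171 and 120 to 57.8 and 66.0 CPM, a log2 change of 1.23 that lost the call without undifferentiated replicate 1 (0.95), and the difference between the series was not tested.

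Not every leading gene fell with differentiation. Inpp5d rose in the mesoderm series, from 51.3 and 43.4 to 110 and 110 CPM (log2 -1.22, SE 0.09, edgeR adjusted p = 5e-09), and Arc went from 16.4 and 11.1 to 39.8 and 38.9 CPM in the endoderm series (-1.52, SE 0.16, edgeR adjusted p = 3.3e-07). Enox1 was called in neither (0.46 and 0.50). Aard (1.36), Cltb (1.20) and Pou4f2 (1.54) were called in the mesoderm series but lost the call without 1 library: Aard without any of the 4 WT libraries (1.19 to 1.53), Cltb without undifferentiated replicate 1 (0.99) or 48 hour replicate 1 (0.96), and Pou4f2 without undifferentiated replicate 1 (1.38) or 48 hour replicate 2 (1.07).

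**Figure D5:**
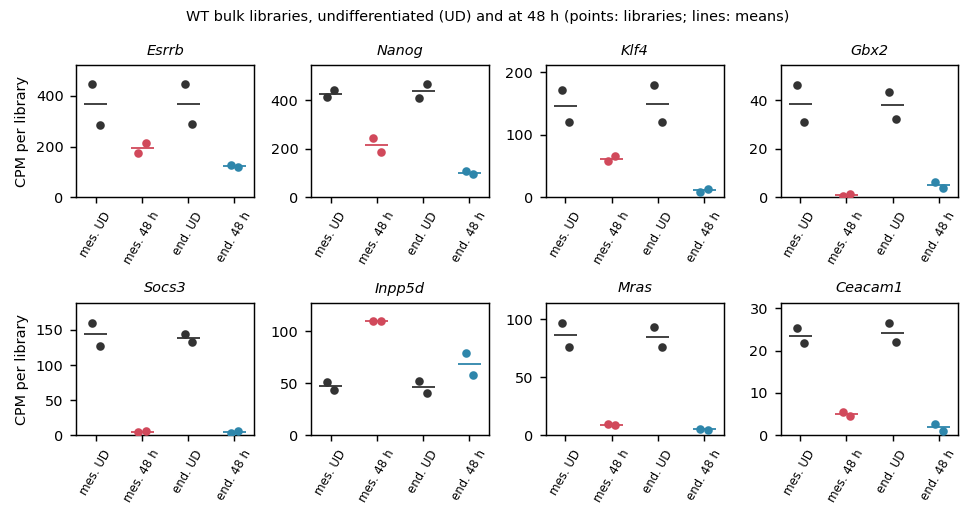
CPM in each WT library (points; lines mark means) of Esrrb, Nanog, Klf4, Gbx2, Socs3, Inpp5d, Mras and Ceacam1, undifferentiated (UD) and at 48 hours, in the mesoderm (mes.) and endoderm (end.) series. Every gene but Inpp5d is lower in both 48 hour libraries than in both undifferentiated libraries of its series, and Inpp5d is higher.

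Day 0 monolayer bulk libraries of the matched WT lines were also examined, as reads divided by a size factor and with no test. Hprt stood at 672 in J1, 664 in JM8 and 612.7 in the Pcl1-3 wt line, so the near absence seen in cluster 3 was not shared by these WT lines. Olig2 stood at 1.86, 86.3 and 28.3, and Eif2s3y at 525, 14.4 and 263. Esrrb (2672, 2349 and 2709) and Nanog (2482, 1919 and 2789) were present in all 3. Pou4f2, a leading gene, was low in each at 2.79, 2.33 and 2.49. Its log2 changes above are given without levels and may rest on few counts. Meg3 was not analysed here in these lines.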

How the data were processed

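Per the study's methods, the authors sequenced SORT-seq plates and deposited UMI counts per gene and cell with cluster numbers from Seurat, mitochondrial genes being absent. Directed differentiation libraries were deposited as estimated counts from Salmon, rounded here to whole numbers, and day 0 monolayer libraries of the matched WT lines as a signal, read counts from Bowtie2 and HTSeq on GRCm38 divided by DESeq2 size factors by the authors. Of the columns deposited, 41 could not be mapped to a sample used and were left out.

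Samples were grouped by the labels. UMIs were summed over the cells of a group and given as UMI CPM with exact Poisson intervals, and shares with exact Clopper-Pearson intervals, both at 95% and covering counting error only. Genes reaching 50 UMI CPM in the higher group and past 2-fold were called. The floor was 3 counts. Cells were thinned to 2500 UMIs (seed 7). Cells were sorted singly, so no doublet caller was run, and an alternative left out cells above 3 times their library's median, of which cluster 3 held 1. Named genes were the 15 highest and 10 lowest by fold against all other cells, the 8 in each direction against clusters 0, 6 and 8, the 10 most variable genes and members of gene lists. Some genes that the rule names are not reported here. The members and lists were chosen with earlier results of these data known.

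Bulk counts were filtered with filterByExpr (minimum 10, total 15) and tested with edgeR 4.0.16 in R 4.3.3 (TMM, quasi-likelihood, Benjamini-Hochberg), with DESeq2 1.42.0 as an alternative. Undifferentiated libraries of both series were fitted together and each WT time course within its series. On simulated data 200 of 200 genes changed by log2 2 were recovered, among 16318 genes for WT against Mtf2 null and among 17242 for the mesoderm time course. The changed genes were drawn from those with more counts, their change was well past the limit, and all genes had a common spread. Recovery near the limit or for genes with few counts was thus not examined. Replicate numbers were not used to pair libraries in the main fits, and a replicate block was an alternative. Single-cell tables used Python 3.11.15, numpy 2.4.6, pandas 2.3.3 and scipy 1.17.1. Alternatives were another scaling, a minimum of 20 UMI CPM, WT day 0 cells alone, no filter, each series alone and leaving out each library.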

Additional observations from a re-analysis of the deposited data

Results flagged for a closer look

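Among 129 groups of 4 undifferentiated libraries examined for a library far from the other 3, 3 were found, where chance gives about 1 in 20. Ccnb1ip1 stood at 18.4 CPM in mesoderm replicate 1 of undifferentiated WT against 27.8 to 29.6 in the other WT libraries. Ddx3y stood at 50.1 CPM in endoderm replicate 2 of the libraries labelled Jarid2 null against 58.8 to 59.4 in the others. Olig2 stood at 0.0610 CPM in endoderm replicate 1 of the libraries labelled Jarid2 null and at 0 in the others. With the others at 0 any count at all meets this rule, so the Olig2 flag says nothing about that library.

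By the order of its libraries alone, Dppa3 differed in opposite directions in the 2 WT time courses, 1 such gene of 39 compared. Its undifferentiated mean over its 48 hour mean was a log2 ratio of -1.21 in the mesoderm series (1.72 and 3.98 CPM) and 1.57 in the endoderm series (1.60 and 0.539 CPM). Undifferentiated and 48 hour libraries did not overlap within either series, but these levels are low and the mesoderm change was not called by edgeR. The difference between the series was not tested.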

How the results depend on the processing

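Counts over genes depended on the filter and the scaling. With a minimum of 20 UMI CPM, genes higher and lower than in other cells were 269 and 762, and 376 and 275 against cluster 0, 340 and 430 against cluster 6, and 485 and 242 against cluster 8. Median-of-ratios scaling gave 257 genes higher than in other cells and 131 higher than in cluster 8. Genes with a variance over mean above 2 numbered 44 at 5000 UMIs, an alternative chosen after seeing the data. In bulk, WT against Mtf2 null gave 1625 genes in the mesoderm series alone. WT against the libraries labelled Jarid2 null gave 364 with no filter on low counts, 14 and 71 in the mesoderm and endoderm series alone, and 85 with same-numbered libraries of both series summed, which was chosen after seeing the data. Leaving out 1 library gave 2195 to 2466, 139 to 185, 1058 to 1610 and 1103 to 1508 genes for the 4 bulk comparisons in the order of the text, the lowest of the time courses being without undifferentiated WT replicate 2. With a replicate block the counts were 2394, 176, 1551 and 1577. Most same-numbered libraries did not deviate together (2 of 6 correlations over 0.1 among undifferentiated libraries, 6 of 66 and 4 of 66 in the series). The 2 among undifferentiated libraries were WT with those labelled Jarid2 null, at 0.288 in the mesoderm and 0.218 in the endoderm series. The number may thus pair those libraries. Libraries of 1 genotype and number in both series also deviated together (0.197 to 0.437), so the 4 libraries of a genotype are not fully independent. DESeq2 gave 2518, 234, 1478 and 1494. The cause of these shifts was not tested. No called value changed sign. Values that were not called did so near 0, and with median-of-ratios scaling the median of all genes went from 0.07 to -0.02 against cluster 0 and from 0.10 to -0.04 against cluster 8. Of the values for single genes and lists under the alternatives, 3284 were labelled the same. In single cells 84 moved, which means outside the counting interval or, for list counts, by more than 1.5-fold. In bulk, 13 passed the limit only under an alternative and 15 lost it. Single-cell genes that crossed 2-fold were not counted here. With 1 library per group, single-cell intervals cover counting error only, and differences between lines, plates and genotypes cannot be told apart.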
